A study of Homo sapiens with 5 samples.

Results

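The genes described here are 10 epithelial identity factors: the transcription factors GRHL1, GRHL2, ELF3, EHF, KLF5, CDX2 and NFIB, the splicing factors ESRP1 and ESRP2, and the apical membrane protein MAL2. They were taken by name from a table of 17297 genes. GRHL2, ESRP1, MAL2 and NFIB were chosen by their lower footprint counts in the mutant cells in these same libraries, so their values are given as a description with no test. GRHL1, ESRP2, ELF3, EHF, KLF5 and CDX2 were not picked for their change, and only these 6 are tested. All 10 were nevertheless chosen with earlier results of these data known, so the 6 are not an independent set. MAL2 is neither a transcription nor a splicing factor.

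The data are ribosome-protected fragments (footprints), counted for each gene in 5 libraries from the human colorectal carcinoma line HCT116. The MUT group, with 3 libraries, carried the change N106S in both copies of the gene for eIF6, introduced with CRISPR/Cas9. The WT group, with 2 libraries, was HCT116 without that change. eIF6 binds the large ribosomal subunit and prevents it from joining the small one. Per the labels' protocols mutant clones were made, but neither the clone behind each library nor separate cultures are named. Each p-value thus reflects library-to-library spread alone, possibly technical, and clone-to-clone differences cannot be told apart from the mutation. RNA-seq was not analysed here, so a footprint difference is not split into mRNA level and ribosomes per mRNA.

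Epithelial cells keep their identity through a small set of transcription factors that hold adhesion and polarity genes active. Grainyhead-like factors such as GRHL2 bind enhancers of these genes and oppose ZEB1, a repressor that drives the epithelial-to-mesenchymal transition (EMT). ESRP1 and ESRP2 bind RNA and select the epithelial exons of transcripts such as those of FGFR2, CD44 and CTNND1. CDX2 is the homeobox factor that specifies intestinal epithelium.

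Library totals were 3076137 to 3821176 counts in MUT and 2095217 and 3128144 in WT. Levels are given as CPM, counts scaled to a common library size. All 10 genes passed the count filter, as did 11991 genes in all. Every marker of an epithelial list (EPCAM, CDH1, KRT8, KRT18 and KRT19) was counted in all libraries, with a summed level of 1106 to 1413 CPM in MUT and 1037 to 1135 CPM in WT (KRT8 and KRT19 were higher in MUT, EPCAM and CDH1 lower). Of the markers of other cell types found in the table, 1 of 7 for fibroblasts (COL1A1), 0 of 3 for endothelium and 1 of 3 for leukocytes (CD68) passed the count filter. Their summed levels were 6.85 to 9.24 CPM in MUT and 7.52 to 8.99 CPM in WT for fibroblasts, 1.32 to 1.91 in MUT and 1.63 to 5.49 in WT for endothelium, and 5.41 to 8.21 in MUT and 1.63 to 4.49 in WT for leukocytes. Among these markers COL1A2, COL3A1, DCN, LUM, PDGFRA, PDGFRB, CD3E and CD14 had no count in most libraries. COL1A1 (16 to 28 counts), CD68 (5 to 32 counts) and the endothelial marker KDR (2 to 5 counts) were counted in every library.

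In MUT cells the footprints of EHF, ELF3 and KLF5 fell, and those of CDX2, ESRP2 and GRHL1 did not pass the test. That is 3 of the 6 unpicked genes lower and 0 higher at an adjusted p under 0.05 in edgeR's quasi-likelihood test. Over all tested genes 22.9% passed, 12.9% lower and 10.0% higher. That balance depends on the scaling: 1544 genes were lower and 1203 higher with TMM scaling, 1209 lower and 1558 higher with upper-quartile scaling, and 1040 lower and 1756 higher by library size only. Of the 6 genes, 3 were lower and 0 higher under each of these scalings. DESeq2 called 2 lower and 0 higher, and 2 were lower when WT replicate 1, WT replicate 2 or MUT replicate 3 was dropped. At an unadjusted p under 0.05 the number higher was also 0. The MUT libraries lay all below or all above the WT libraries for 5 of the 6, as for 50.7% of all tested genes (25.3% below and 25.4% above). EHF, ELF3 and KLF5 lay below, and ESRP2 and CDX2 above. The 4 picked genes were all lower as well, by 1.48-fold to 3.82-fold.

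**Figure D1:**
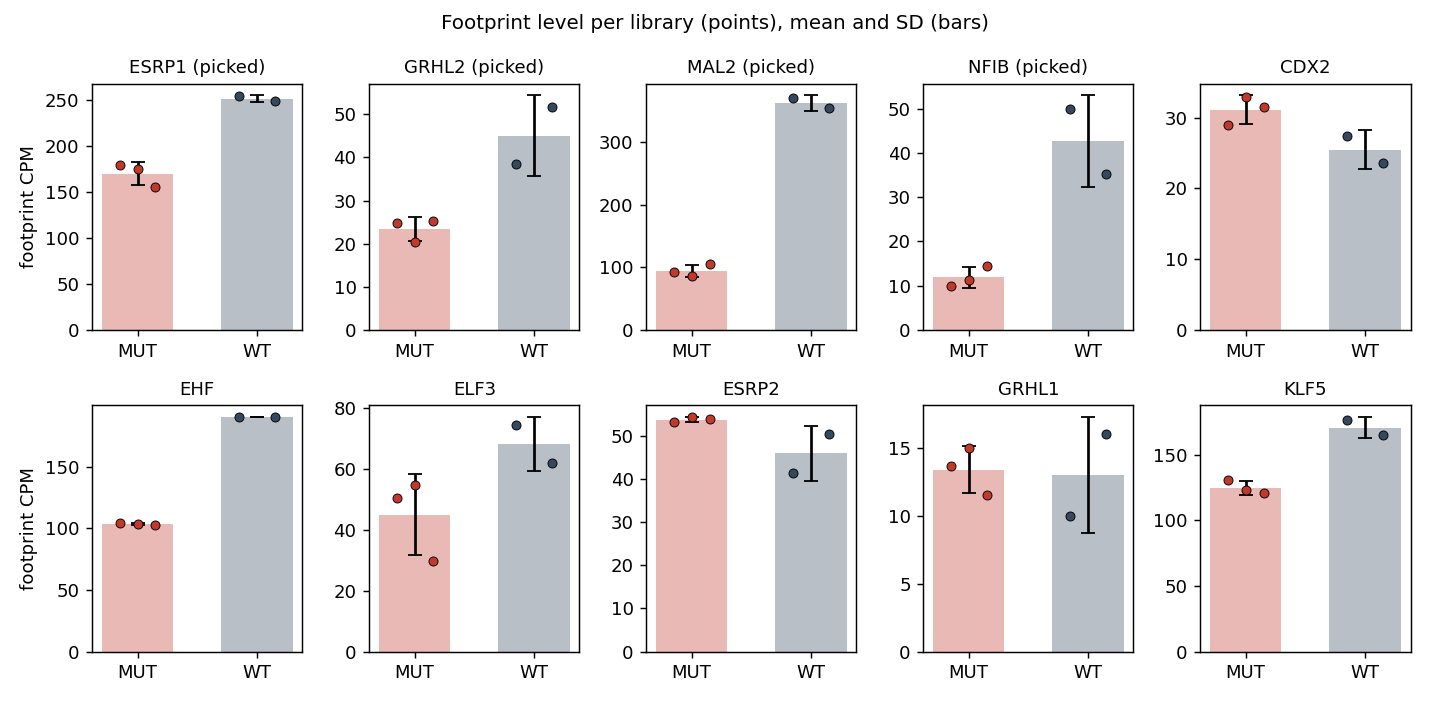
Footprint level in CPM (vertical axis, from 0) of the 10 genes in each MUT and WT library. Points are libraries, bars the group mean, and whiskers the SD (n = 3 MUT, n = 2 WT). For the 4 picked genes and for EHF, ELF3 and KLF5 every MUT point lies below every WT point, and for ESRP2 and CDX2 above. Of all tested genes 25.3% lay wholly below and 25.4% wholly above.

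GRHL2 had 24.8, 20.3 and 25.1 CPM in the MUT libraries, against 38.5 and 51.7 CPM in the WT libraries. Every MUT value lay below both WT values, and the WT libraries stood far apart from each other. The means were 23.4 ± 2.72 CPM in MUT (SD, n = 3) and 45.1 ± 9.34 CPM in WT (SD, n = 2), a log2 fold change of -0.97 (SE 0.172). It came to -0.71 without WT replicate 2. GRHL2 lies on chromosome 8 (101492439 to 101681200 on GRCh38.p14).

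GRHL1, the related grainyhead-like factor, had 13.7, 15.0 and 11.5 CPM in MUT, against 9.99 and 16.02 CPM in WT. The groups overlapped. Its log2 fold change was -0.0050 (SE 0.262, edgeR adjusted p 0.992). It had 43, 57 and 45 counts in MUT, against 20 and 49 in WT, which limits what could be detected.

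ESRP1 had 179, 175 and 156 CPM in MUT, against 254 and 249 CPM in WT. The gap between the groups was wider than the spread in either. Its log2 fold change was -0.56 (SE 0.0943). ESRP1 lies on chromosome 8 as well (94641174 to 94707466).

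ESRP2 had 53.1, 54.2 and 53.9 CPM in MUT, against 41.5 and 50.4 CPM in WT. All MUT values were above both WT values, by little in the case of WT replicate 2. The difference did not pass the test (log2 fold change 0.21, SE 0.137, edgeR adjusted p 0.282).

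Within each library the 2 ESRP genes can be set against each other without any scaling. ESRP2 held 22.8%, 23.6% and 25.7% of the pair's counts in the MUT libraries, against 14.02% and 16.8% in the WT libraries. The 95% exact binomial intervals of the MUT shares began at 19.8% or more, and those of the WT shares ended at 19.4% or less. GRHL2 held 64.5%, 57.5% and 68.5% of the counts of GRHL1 and GRHL2 in MUT, against 79.4% and 76.3% in WT, and there the intervals overlapped between some libraries. Both comparisons contain a gene picked for its fall, which favours these shifts in share. They are given without a test, and whether the intervals overlap is no test of the groups. The intervals leave out the spread between libraries. No molecular identifiers are stated, so repeated reads of the same fragment could not be set apart, and the intervals may be too narrow.

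**Figure D2:**
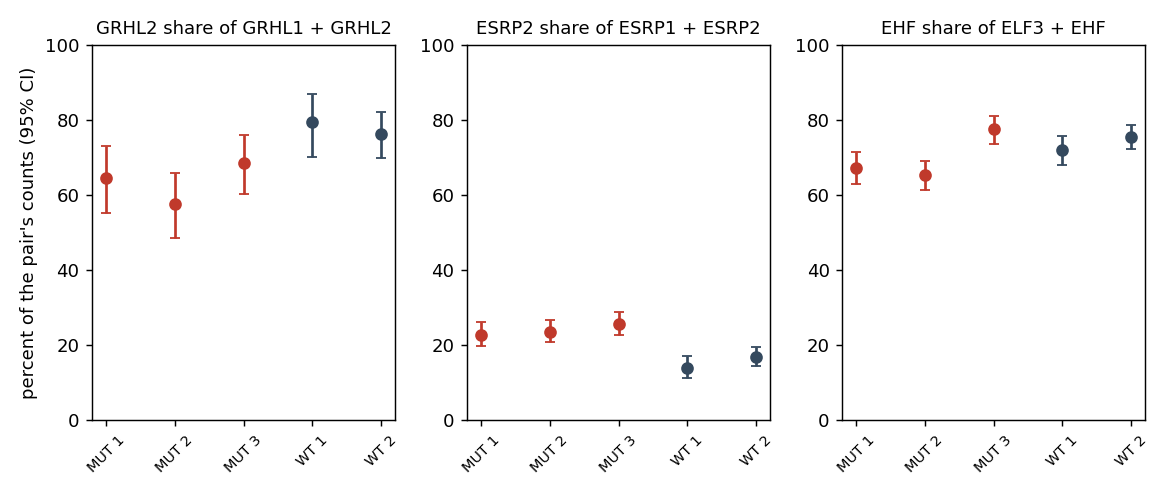
Share of a related pair's counts held by its second gene (percent, vertical axis) in each MUT and WT library, with 95% exact binomial intervals. The ESRP2 share is 22.8% to 25.7% in MUT and 14.02% to 16.8% in WT, the GRHL2 share is lower in MUT, and the EHF share overlaps between the groups.

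EHF and ELF3 are ETS-family transcription factors found mainly in epithelia. EHF had 104, 103 and 103 CPM in MUT, against 190.3 and 190.3 CPM in WT, so the libraries of each group were nearly equal. It fell 1.84-fold (log2 fold change -0.88, SE 0.0934), with an edgeR adjusted p of 5.19e-07, the lowest of the 6 genes. Only 1.32% of tested genes had a lower log2 fold change.

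ELF3 had 50.6, 54.8 and 29.8 CPM in MUT, against 74.4 and 61.8 CPM in WT. MUT replicate 3 was far below the other MUT libraries, although all MUT values were below both WT values. It fell 1.5-fold (log2 fold change -0.59, SE 0.177, edgeR adjusted p 0.018). That call was lost without MUT replicate 3 (log2 fold change -0.35, adjusted p 0.0805), without WT replicate 1 (-0.47, 0.197), without WT replicate 2 (-0.73, 0.0789) and in DESeq2 (adjusted p 0.272). The share of EHF in the counts of this pair was 67.3%, 65.3% and 77.5% in MUT, against 71.9% and 75.5% in WT. The shares overlapped between the groups (difference -3.64 percentage points, MUT minus WT, exact two-sided permutation p = 0.5, where the smallest possible p is 0.1).

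KLF5, a zinc finger factor of proliferating crypt cells in the intestine, had 131, 123 and 121 CPM in MUT, against 176 and 165 CPM in WT. The groups were clearly apart. It fell 1.36-fold (log2 fold change -0.45, SE 0.0958, edgeR adjusted p 0.00175). CDX2 had 28.9, 32.9 and 31.6 CPM in MUT, against 27.5 and 23.5 CPM in WT. Its MUT values were all above its WT values, and the difference did not pass the test (log2 fold change 0.31, SE 0.176, edgeR adjusted p 0.215). KLF5 (73054976 to 73077538) and CDX2 (27960918 to 27969315) both lie on chromosome 13, GRHL1 on chromosome 2 (9951693 to 10002277), ESRP2 on 16 (68229033 to 68236127), ELF3 on 1 (202010587 to 202017183) and EHF on 11 (34621093 to 34663288).

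The genes with a single promoter window in the RefSeq table among those tested are ELF3, which fell, and CDX2 and GRHL1, which did not pass. Their windows (250 bases before to 50 after the gene start, GRCh38.p14) are printed. Capitals mark CACCTG on either strand, the E2-box letters that ZEB1 and SNAI2 are known to bind. EHF and KLF5, which also fell, have 2 windows each, and none of those holds these letters.
ELF3 promoter, chr1:202010337-202010636, plus strand: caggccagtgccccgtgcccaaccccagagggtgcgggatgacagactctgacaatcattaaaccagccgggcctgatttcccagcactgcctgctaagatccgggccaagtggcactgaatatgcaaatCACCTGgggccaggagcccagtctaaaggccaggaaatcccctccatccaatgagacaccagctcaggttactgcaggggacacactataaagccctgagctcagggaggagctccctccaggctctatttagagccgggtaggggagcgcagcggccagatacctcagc
CDX2 promoter, chr13:27969266-27969565, minus strand: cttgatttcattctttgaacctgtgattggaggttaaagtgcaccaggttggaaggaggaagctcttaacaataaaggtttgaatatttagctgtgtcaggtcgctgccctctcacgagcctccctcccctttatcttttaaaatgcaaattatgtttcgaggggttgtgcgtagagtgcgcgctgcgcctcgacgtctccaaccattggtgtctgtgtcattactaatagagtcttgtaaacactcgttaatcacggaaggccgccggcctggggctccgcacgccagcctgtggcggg
GRHL1 promoter, chr2:9951443-9951742, plus strand: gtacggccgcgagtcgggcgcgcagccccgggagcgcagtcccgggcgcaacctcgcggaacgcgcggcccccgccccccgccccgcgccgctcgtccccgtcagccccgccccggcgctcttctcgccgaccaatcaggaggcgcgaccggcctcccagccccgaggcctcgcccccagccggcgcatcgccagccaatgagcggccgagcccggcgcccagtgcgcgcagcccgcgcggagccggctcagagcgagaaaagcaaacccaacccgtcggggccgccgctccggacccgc

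GRHL2, ESRP1 and MAL2 were not searched, because windows of the 10 genes on chromosome 8 were left out. Windows were found for 6 of the others, ELF3, GRHL1, NFIB, EHF, CDX2 and KLF5, and none for ESRP2. There were 10 for NFIB, 2 each for EHF and KLF5, and 17 in all. Among the 17 windows only that of ELF3 held CACCTG, at 120 bases before its start. Of all 35116 windows, with chromosome 8 not left out, 20.6% held it. The grainyhead letters AACCNGTT, also searched on both strands, were in none of the 17 windows and in 1.73% of all windows. The base before ACCTG differs between them, so the same ACCTG cannot count for both. These matches describe letters in a window and not binding.

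MAL2 is a membrane protein that carries cargo to the apical surface of epithelial cells. It had 92.9, 85.8 and 105 CPM in MUT, against 371 and 353 CPM in WT. No MUT library reached a level near WT, and the drop was 3.82-fold (log2 fold change -1.93, SE 0.0974). NFIB, a nuclear factor I transcription factor on chromosome 9 (14081843 to 14532077), had 9.86, 11.3 and 14.4 CPM in MUT, against 49.9 and 35.3 CPM in WT. It stood 3.49-fold lower (log2 fold change -1.80, SE 0.208), with a wide spread between the WT libraries. Of all tested genes 0.183% were lower in log2 fold change than MAL2 and 0.259% lower than NFIB. Both were picked for their fall, so low ranks follow from that choice.

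**Figure D3:**
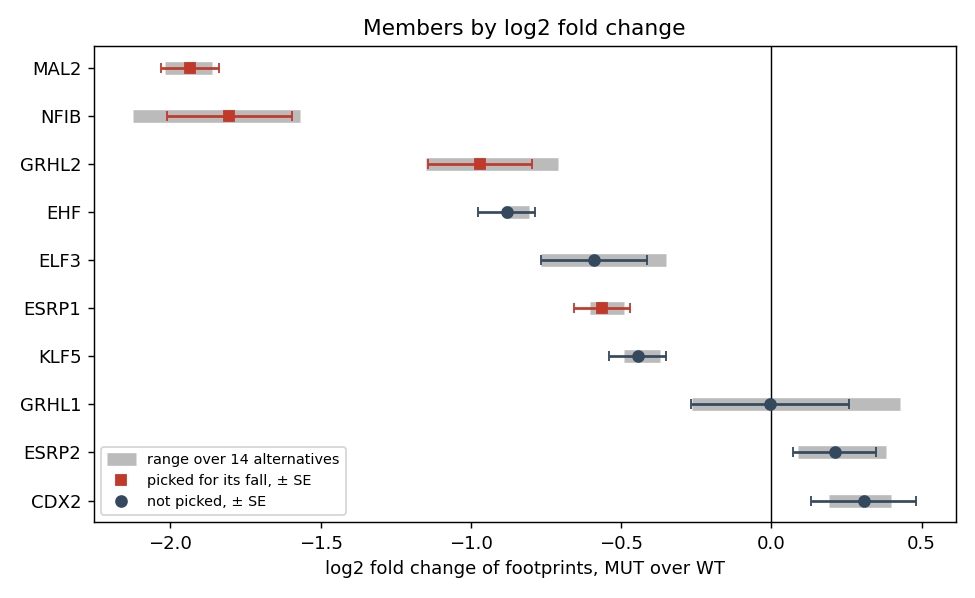
Log2 fold change of footprints, MUT over WT (horizontal axis), of the 10 genes with its SE, and in grey the range over 14 alternative fits. MAL2 (-1.93) and NFIB (-1.80) lie lowest, EHF, ELF3 and KLF5 lie between -0.88 and -0.45, and GRHL1, ESRP2 and CDX2 lie near or above 0.

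In order of log2 fold change the 10 genes ran from MAL2 and NFIB over GRHL2 (-0.97), EHF (-0.88), ELF3 (-0.59), ESRP1 (-0.56) and KLF5 (-0.45) to GRHL1 (-0.0050), ESRP2 (0.21) and CDX2 (0.31). Neighbours in that order mostly lay within their standard errors, for example GRHL2 and EHF, or ELF3 and ESRP1. The gap between NFIB and GRHL2 was wider than either error.

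ESRP1, GRHL2 and MAL2 all lie within a stretch of 24.6 Mb of chromosome 8, so the genes around them were examined. Of 52 tested genes between ESRP1 and MAL2, GRHL2 left out, 20 were lower (38.5%) and 1 was higher (1.92%), against 12.9% and 10.0% of all tested genes. Their median log2 fold change was -0.25, and that of all tested genes was 0.00. Leaving out WT replicate 2 or MUT replicate 1 left 12 lower, and the 1 higher call was lost without WT replicate 1, WT replicate 2 or MUT replicate 3. Of these 52 genes, 6 had a lower log2 fold change than ESRP1, 1 a lower one than GRHL2 and 0 a lower one than MAL2. ESRP1, GRHL2 and MAL2 were picked for their fall, which favours such low places. Over the whole chromosome 85 of 402 tested genes were lower (21.1%) and 34 higher (8.46%). Shares like that of the stretch also occurred outside it on chromosome 8, with 8 of 17 tested genes lower between 50 and 60 Mb, 8 of 19 between 70 and 80 Mb and 8 of 19 between 80 and 90 Mb. Chromosomes 4, 13 and 18 had 21.7%, 22.7% and 23.3% of their tested genes lower. The part of this stretch in the values of ESRP1, GRHL2 and MAL2 was not tested.

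**Figure D4:**
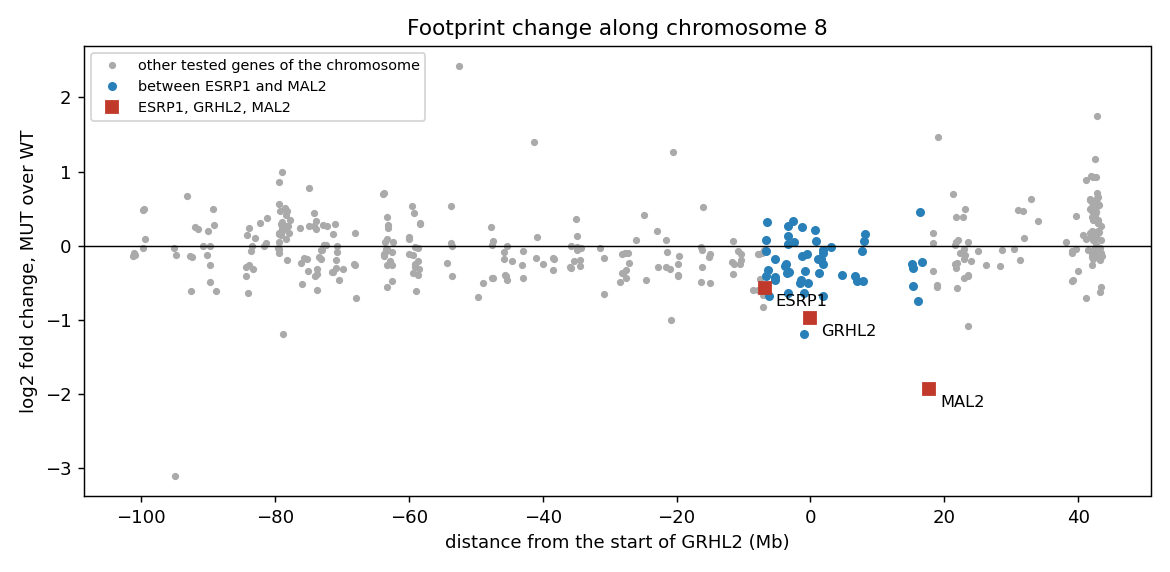
Log2 fold change of footprints, MUT over WT (vertical axis), of tested genes on chromosome 8 by distance of their starts from that of GRHL2 (Mb, horizontal axis). The genes between ESRP1 and MAL2 have a median of -0.25, and GRHL2 and MAL2 lie below most or all of them.

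The tested genes next to each picked gene differed among themselves. Beside ESRP1, the glycosyltransferase-family gene DPY19L4, 12434 bases away, fell with a log2 fold change of -0.55 (edgeR adjusted p 0.00206, but 0.101 without WT replicate 2). VIRMA, a subunit of the RNA methylation complex on the other side, was at -0.053 (0.729). Beside GRHL2, ZNF706 fell (-0.50, edgeR adjusted p 0.00251) and RRM2B, a ribonucleotide reductase subunit, was at 0.22 (0.0935, and 0.0237 when scaled by library size only). Beside MAL2, SAMD12 was at -0.21 and the TFIID subunit TAF2 at 0.032, with edgeR adjusted p of 0.255 and 0.846. Beside NFIB, LURAP1L was at 0.96 and ZDHHC21 at 0.070, with 0.201 and 0.841. None of these flanking genes came near the values of MAL2 or NFIB, both picked for their fall.

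Within 2 Mb on either side, the 19 tested neighbours of ESRP1 had a median log2 fold change of -0.40, with 9 lower and 1 higher, so ESRP1 stood 0.16 below that median. GRHL2 stood 0.79 below the median of its 19 neighbours (-0.18, 6 lower). MAL2 stood 1.72 below that of 9 neighbours (-0.21, 4 lower), among which SNTB1, a syntrophin named after its value was seen, rose 2.77-fold. NFIB stood 1.94 below that of 6 neighbours (0.14, 2 lower). ESRP1, GRHL2, MAL2 and NFIB were picked for their fall, which favours a place below their neighbours. EHF stood 0.83 below that of 25 neighbours (-0.05, 2 lower and 4 higher), and none of them had a lower value than EHF. ELF3 stood 0.66 below that of 32 neighbours (0.07, 2 lower and 5 higher). KLF5 was within 0.07 of the median of its 5 neighbours (-0.38, 3 lower). CDX2 stood 0.46 above that of 15 neighbours (-0.15, 3 lower), and 14 of the 15 had a lower value. ESRP2 stood 0.26 above that of 70 neighbours (-0.05, 13 lower). CDH1, which encodes E-cadherin, is the lowest of those 70. Over all tested genes 12.9% were lower and 10.0% higher. Among the neighbours the share lower was 47.4% for ESRP1, 31.6% for GRHL2, 44.4% for MAL2 and 33.3% for NFIB. It was 8% for EHF, 6.25% for ELF3, 60% for KLF5, 20% for CDX2 and 18.6% for ESRP2. The share higher was 5.26% for ESRP1, 11.1% for MAL2, 16% for EHF, 15.6% for ELF3 and 2.86% for ESRP2. Some of these shares rest on as few as 5 genes.

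The lists of related genes were described by counts and medians. Of 31 tested genes of epithelial adhesion and polarity 5 were lower (16.1%) and 3 higher (9.68%), close to the 12.9% and 10.0% over all tested genes, with a median log2 fold change of -0.12. PARD6B, a polarity scaffold, had 87.2, 87.4 and 94.9 CPM in MUT, against 143 and 136 CPM in WT, and fell 1.55-fold. CDH1 had 8.91, 12.1 and 12.6 CPM in MUT, against 21.5 and 20.9 CPM in WT, and fell 1.87-fold. EPCAM, an adhesion protein of epithelia named after its value was seen, fell 1.41-fold. LAD1, an anchoring filament protein, rose 1.46-fold. Adjusted p in edgeR was 0.00011 for PARD6B, 0.00741 for CDH1, 0.0087 for EPCAM and 0.00245 for LAD1. CDH1 lost its call without WT replicate 2 (0.0777), as did EPCAM (0.194), which also lost it without MUT replicate 1 (0.0528). Dropping WT replicate 2 left 1 lower and dropping MUT replicate 3 left 3, and 1 was higher once MUT replicate 1 was dropped.

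Of 15 EMT transcription factors and their opponents 9 were tested, 2 were higher (22.2%) and 0 lower, against 10.0% and 12.9% of all tested genes, with a median of 0.20. ZEB1 had 21.9, 29.8 and 31.0 CPM in MUT, against 16.5 and 13.1 CPM in WT, and rose 1.91-fold (log2 fold change 0.94, SE 0.22, edgeR adjusted p 0.00366). SNAI2, another EMT repressor, had 14, 22 and 12 counts in MUT, against 3 and 1 counts in WT. It passed the count filter only through its MUT libraries, so at its WT level only a rise could bring it into the test. Its place among the 2 called higher is therefore no independent support. The ratio of summed counts was 5.60 for MUT over WT (95% exact interval 2.05 to 21.4, counting error only), with an edgeR adjusted p of 0.017. OVOL1, which opposes EMT, was at -0.36 (0.307). Both rises lost their calls without WT replicate 2 (ZEB1 0.109, SNAI2 0.289), so 0 were then higher, and 1 was higher without MUT replicate 2, where SNAI2 was not tested.

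Among 14 tested transcription factors of the intestine 3 were lower (21.4%) and 2 higher (14.3%), against 12.9% and 10.0% of all tested genes (median 0.08). HNF4A, a nuclear receptor of gut and liver, had 5.73, 4.74 and 5.13 CPM in MUT, against 13.98 and 17.0 CPM in WT, and fell 3.01-fold (edgeR adjusted p 0.000683). SOX9, a factor of crypt stem and progenitor cells, rose 1.32-fold (0.00427), and HES1, a Notch target, fell 1.47-fold (0.0139). SOX9 lost its call without WT replicate 2 (0.087), and HES1 without WT replicate 2 (0.317) or MUT replicate 1 (0.0548) and in DESeq2 (0.0687). Dropping WT replicate 2 left 0 higher, and dropping MUT replicate 1 left 1 higher and 1 lower. Of 22 listed CDX2 targets and gut differentiation genes 16 were in the table and 2 were tested. The carbonic anhydrase CA2 rose 1.44-fold (edgeR adjusted p 0.00388, but 0.0638 without WT replicate 1), and the water channel AQP3 was at a log2 fold change of 0.13 (0.903).

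Of 24 tested mRNAs known as ESRP splicing targets 6 were higher (25.0%) and 5 lower (20.8%), against 10.0% and 12.9% of all tested genes, with a median of 0.18. The number lower was 3 with upper-quartile scaling and 2 by library size only. The polarity protein PARD3 fell (log2 fold change -0.97), with 50.6, 47.9 and 47.0 CPM in MUT, against 109 and 83.7 CPM in WT. EXOC7 of the exocyst rose 1.66-fold and NF2 (merlin) 1.38-fold. Adjusted p in edgeR was 1.21e-05, 0.000179 and 0.00112 in that order. Counts per gene do not show which exons were used. The number higher fell to 2 and the number lower to 2 without MUT replicate 1, and without WT replicate 1 they were 3 and 2. Leaving out WT replicate 2 gave 3 in each direction, and 3 were lower when MUT replicate 2 or 3 was dropped.

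Of 25 other regulators of splicing 6 were lower (24.0%) and 2 higher, against 12.9% and 10.0% of all tested genes, with a median of -0.10. The muscleblind protein MBNL3 had 3.50, 4.21 and 1.54 CPM in MUT, against 13.5 and 20.3 CPM in WT, and fell 5.59-fold. MBNL1 fell 1.36-fold and SRSF3 1.32-fold. All 3 remained called in every alternative that tested them. The number higher was 1 without WT replicate 1, WT replicate 2 or MUT replicate 2.

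Among 29 tested paralogues of the 10 genes 6 were lower (20.7%) and 3 higher (10.3%), against 12.9% and 10.0% of all tested genes, with a median of -0.12. CMTM4, of the wider MAL-related family, fell 1.4-fold, the Krüppel-like factor KLF3 1.31-fold and the RNA-binding RBM12 1.28-fold, the last not without WT replicate 2 (edgeR adjusted p 0.0597). NFIC, of the same family as NFIB and named after its value was seen, rose 1.29-fold (edgeR adjusted p 0.00782, but 0.0612 without WT replicate 2). Dropping WT replicate 2 left 0 higher and dropping MUT replicate 1 or 3 left 1, and the number lower was 3 without WT replicate 1.

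Among 27 tested genes of apical transport, the process MAL2 serves, 2 were lower and 2 higher (7.41% each, against 12.9% and 10.0% of all tested genes, median 0.05). LGALS3, a lectin of apical sorting, fell 1.7-fold (edgeR adjusted p 3.53e-05). RAB8A rose 1.26-fold and RAB11A, another small GTPase of this route, fell 1.24-fold. Their adjusted p of 0.0116 and 0.0147 became 0.0991 and 0.0771 without WT replicate 2, and 0.0541 and 0.0605 without MUT replicate 1. Dropping WT replicate 1 or 2 left 1 higher and dropping MUT replicate 1 left 0, and 1 was lower without WT replicate 2 or without MUT replicate 1.

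**Figure D5:**
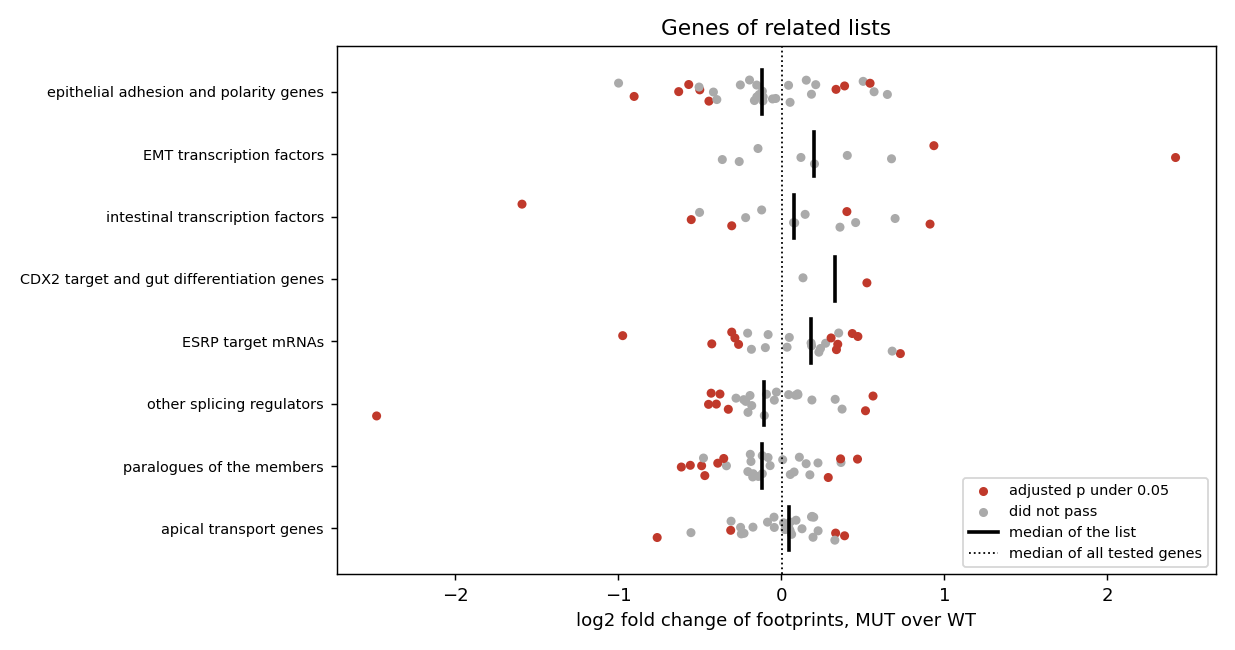
Log2 fold change of footprints, MUT over WT (horizontal axis), of the tested genes in each list of related genes. Red points passed an adjusted p under 0.05, bars are list medians (-0.12 for adhesion and polarity, 0.20 for EMT factors), and the dotted line is the median of all tested genes at 0.00.

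Genes with the most similar pattern over the 5 libraries were found by the Euclidean distance of centred log2 CPM, among tested genes with a mean of at least 10 CPM. KRT23, a keratin, was nearest to MAL2 (distance 0.291, where the median gene lay at 2.14), and MAL2 itself was nearest to NFIB (0.432 against 2.03). MAL2, NFIB, GRHL2 and ESRP1 were picked for their fall in these same libraries. That choice favours the closeness of MAL2 and NFIB and nearest genes that fall too. The centrin CETN3 was nearest to GRHL2 (0.193), the iron-sulfur assembly factor ISCA2 to ESRP1 (0.0388), SUN3 to EHF (0.0842), BPHL to ELF3 (0.194) and the RNA-binding TIA1 to KLF5 (0.0361). The genes that did not pass had PRMT7 (GRHL1, 0.0927), LHX6 (ESRP2, 0.0441) and the read-through gene DUS4L-BCAP29 (CDX2, 0.0254, a gene that overlaps others) as their nearest.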

How the data were processed

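Ribosome profiling of HCT116 cells was analysed in 3 MUT and 2 WT libraries. The deposited values are raw counts per gene. The submitters' processing notes list STAR 2.5.2b, hg38, cutadapt 4.6, DESeq2 1.42.0 and FastQC 0.12.1. Per the labels' protocols MNase-digested monosomes were the source. For the counting tool, annotation and strand setting, the sources used here give nothing. Counts were tested in R 4.3.3 with edgeR 4.0.16 (filterByExpr with a minimum count of 10 and a minimum total of 15, TMM, quasi-likelihood F test, 3 residual degrees of freedom, Benjamini-Hochberg over 11991 genes). On simulated counts of this comparison, with 11991 genes and 50 changed per size, recovery was 16% for a 1.25-fold change, 64% for 1.5-fold, 86% for 2-fold, and for 3-fold 94%. Every simulated gene had the same spread between libraries (coefficient of variation 7.37%), so recovery of genes with a wider spread was not simulated. Positions came from RefSeq for GRCh38.p14 (17249 names matched, 48 not). The 10 genes and all lists were chosen with earlier results of these data known. Named genes are the 10, the 3 with the lowest p in each list, the gene with a mean of at least 10 CPM nearest in pattern to each of the 10, and the nearest tested gene on each side of those picked. EPCAM, NFIC and SNTB1 were named after their values were seen. Alternatives used limma 3.58.1 and DESeq2 1.42.0.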

Additional observations from a re-analysis of the deposited data

How the results depend on the processing

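The 14 alternatives were other scalings, tools and count filters, a replicate block, thinning to the smallest library and each library left out in turn. EHF and KLF5 kept their direction and an adjusted p under 0.05 in all 14. The 4 picked genes kept their direction in all 14, which their choice on these same libraries favours. ELF3 missed the threshold in 4. ESRP2 and CDX2 stayed positive and uncalled in all 14. Of 32 other named genes that were called, 16 kept their call in all alternatives that tested them and none changed sign.

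GRHL1, with no call, turned positive with upper-quartile scaling (0.041), library size only (0.065), DESeq2 (0.014), no count filter (0.0039), the strict count filter (0.0074), the replicate block (0.12) and thinning (0.094), and ranged from -0.26 to 0.43 with single libraries left out. Uncalled flanking and list genes that changed sign were AQP3 (-0.020 with the replicate block, -0.52 to 2.48 with libraries left out), VIRMA (0.020 with library size only, -0.14 to 0.057), TAF2 (-0.072 to 0.16), ZDHHC21 (-0.075 with the replicate block, -0.21 to 0.32) and PRMT7 (-0.20 to 0.37). The causes were not tested.

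All tested genes gave 1558 higher and 1209 lower calls with upper-quartile scaling, 1756 and 1040 by library size only, 609 and 948 in DESeq2, 1529 and 1909 with the replicate block, and 509 to 1089 and 732 to 1339 with a library left out. For the lists, DESeq2 called 1 adhesion gene higher and 3 lower, and called 1 gene higher among EMT factors, 1 among intestinal factors, 1 among other splicing regulators, 1 among paralogues and 1 among apical transport genes, and 2 among ESRP targets. Limma-voom called 3 ESRP targets and 1 other splicing regulator higher. With library size only 2 ESRP targets and 1 apical transport gene were lower and 4 other splicing regulators higher, and with upper-quartile scaling 3 ESRP targets were lower. The replicate block called 5 adhesion genes higher. The strict count filter left 1 EMT factor higher and thinning left 1 EMT and 1 intestinal factor higher. Between ESRP1 and MAL2 the number higher was 3 (upper quartile), 4 (library size only), 0 (DESeq2), 0 (limma-voom), 2 (strict count filter), 3 (replicate block) and 0 (thinning).

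With a library left out, adhesion genes ranged from 1 to 4 higher and 1 to 5 lower, EMT factors from 0 to 2 higher, intestinal factors from 0 to 2 higher and 1 to 2 lower, CDX2 targets from 0 to 1 higher, ESRP targets from 2 to 5 higher and 2 to 3 lower, other splicing regulators from 1 to 2 higher, paralogues from 0 to 3 higher and 3 to 7 lower, apical transport genes from 0 to 2 higher and 1 to 3 lower, and genes between ESRP1 and MAL2 from 0 to 1 higher and 12 to 21 lower.

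Only the replicate numbers 1 and 2 are shared by the groups, and nothing in the labels ties libraries of the same number, so they were not treated as pairs. Deviations from the group means correlated at 0.079 for MUT and WT replicates 1 and at 0.148 for replicates 2 (WT deviations mirror each other with 2 libraries). The replicate block (1 residual degree of freedom) changed no call of the 6 tested genes. GRHL1, NFIB in MUT and SNAI2 are limited by low counts.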
